A study of Mus musculus with 72 samples.

Results

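Genes that mark neural precursor cells were followed in chromatin-associated RNA from female mouse embryonic stem cells differentiating into neural precursor cells (NPCs). The 10 genes, Sox1, Pax6, Nes, Vim, Hes5, Notch1, Zic1, Msi1, Fabp7 and Sox9, were chosen by name from 22556 genes counted in 72 libraries. In chromatin RNA sequencing (ChrRNA-seq), RNA that stays with the chromatin pellet is sequenced, so that the counts are weighted to nascent, unspliced transcripts. All cells were XX hybrids of 129S (Dom) and CAST (Cast) genomes in which a doxycycline-inducible TetOn promoter replaced the promoter of Xist, the RNA that silences one X chromosome, either on the Dom allele (iXist-ChrX-Dom) or on the Cast allele (iXist-ChrX-Cast). In iXist-ChrX-Dom the wild type was line A11B2 and the SmcHD1 knockout (KO) was clone A3, and in iXist-ChrX-Cast the wild type was C7H8 and the KO clones were D5 and G6. SmcHD1 is a chromatin protein that takes part in the silencing of the inactive X. Each of these 5 cell sets is called a clone here, and WT and KO were thus compared between 1 WT and 1 KO clone in the Dom line and between 1 WT and 2 KO clones in the Cast line.

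Every clone was differentiated in N2B27 medium with 1 μg/mL doxycycline, lifted at day 7 to grow in suspension with EGF and FGF, plated again at day 10 and then passaged. Libraries were made at days 2, 3, 5, 7, 15, 21 and 35 in all 5 clones and at day 52 in the Dom line. Undifferentiated, uninduced ES libraries were analysed for the KO clones, 2 each for A3 and D5 and 1 for G6. Mean Xist was at 141, 238 and 1009 RPM in ES of A3, D5 and G6 and at 6882, 5183 and 8369 RPM at day 2. Contrasts of day 2 with ES therefore change Xist induction and differentiation together. Days 2 to 7 had 2 replicates per clone, with 3 in Cast WT at days 3, 5 and 7, and each later day had 1 library per clone. The study describes the replicates up to day 7 as repeat time courses, and each later library as a single sample. The p-values of the genotype tests of days 2 to 7 therefore rest on the spread between courses of the same clone. The tests between days, also those of days 3, 5 and 7 against day 2, come from fits of all libraries of a line. These fits pool days 15 and later, so their spread includes that between late days. The late genotype tests hold no repeat courses, and their spread comes from the days. Where D5 and G6 were set against WT as 1 KO group, the spread also includes the difference between these clones. Each line has 1 WT clone, so the spread between WT clones was not measured. The feeder cells on which the ES cells had grown, inactivated mouse fibroblasts, were removed by 4 rounds of pre-plating before differentiation. In bulk RNA of this kind, fewer cells of a type and less RNA per cell cannot be told apart.

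The markers describe successive states of the neural lineage. SOX1, PAX6 and ZIC1 are transcription factors of the neuroectoderm, and PAX6 later patterns the forebrain and eye. Nestin, encoded by Nes, and vimentin, encoded by Vim, are intermediate filament proteins of dividing neuroepithelial cells and radial glia, and vimentin is also made by fibroblasts and other mesenchymal cells. NOTCH1 is a receptor that, once cut, releases a domain that binds the DNA-binding protein RBPJ and switches on repressors of neuronal differentiation such as HES1 and HES5. MSI1 is an RNA-binding protein of neural stem cells, FABP7 a fatty acid binding protein of radial glia, and SOX9 a factor of neural stem cells, glia, neural crest and cartilage.

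Replicate totals ran from 9344054 to 56290046 fragments after 7 replicates with repeat runs were summed, and levels are given as RPM, fragments scaled to the total assigned to genes in the library. A count of 3 fragments corresponded to 0.0533 to 0.321 RPM in these 65 replicates. The level of Smchd1 itself overlapped between the genotypes over all days, from 382 to 648 RPM in Dom WT and from 217 to 594 RPM in A3. At matched days the mean of A3 was below that of Dom WT each time, for example 378 against 537 RPM at day 15. In the Cast line the Smchd1 level ran from 360 to 709 RPM in WT, from 320 to 613 RPM in D5 and from 270 to 616 RPM in G6. The mean of G6 was below that of WT at every day after ES, and that of D5 at every such day but day 21. These differences were not tested. The counts cover whole transcripts with introns and therefore do not show the KO lesion.

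Promoter sequence was available in RefSeq (assembly GRCm38.p6) for 8 of the 10 genes, as windows of 300 bases around the annotated start. Those of Nes, Vim, Hes5 and Fabp7 are shown 5′ to 3′ on the strand of the gene, with motif matches in capitals. Nes and Vim were called higher by day 7 in WT and KO cells of both lines, and the windows of Hes5 and Fabp7 hold RBPJ motifs. The motifs marked are RBPJ (TGGGAA), the N box bound by HES proteins (CACNAG), the TATA box (TATAAA) and the GC box (GGGCGG), each searched on both strands.
Nes, chr3:87970843-87971142, + strand: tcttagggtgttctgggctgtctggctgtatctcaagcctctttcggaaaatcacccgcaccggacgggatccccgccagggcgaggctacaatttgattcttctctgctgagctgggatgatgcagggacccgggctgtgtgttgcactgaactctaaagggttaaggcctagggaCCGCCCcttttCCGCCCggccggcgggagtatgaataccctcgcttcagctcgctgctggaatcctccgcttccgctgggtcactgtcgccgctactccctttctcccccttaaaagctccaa
Vim, chr2:13574061-13574360, + strand: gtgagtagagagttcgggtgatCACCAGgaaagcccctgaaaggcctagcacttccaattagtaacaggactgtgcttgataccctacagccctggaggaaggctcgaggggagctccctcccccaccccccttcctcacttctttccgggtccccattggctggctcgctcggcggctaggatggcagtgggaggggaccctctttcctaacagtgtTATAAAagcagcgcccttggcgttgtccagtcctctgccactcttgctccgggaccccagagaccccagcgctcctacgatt
Hes5, chr4:154960673-154960972, + strand: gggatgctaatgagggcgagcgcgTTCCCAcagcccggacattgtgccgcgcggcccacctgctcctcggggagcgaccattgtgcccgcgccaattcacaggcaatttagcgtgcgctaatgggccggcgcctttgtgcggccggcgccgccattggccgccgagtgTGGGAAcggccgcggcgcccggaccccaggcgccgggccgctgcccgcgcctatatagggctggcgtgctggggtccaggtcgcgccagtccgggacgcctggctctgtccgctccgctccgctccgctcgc
Fabp7, chr10:57784673-57784972, + strand: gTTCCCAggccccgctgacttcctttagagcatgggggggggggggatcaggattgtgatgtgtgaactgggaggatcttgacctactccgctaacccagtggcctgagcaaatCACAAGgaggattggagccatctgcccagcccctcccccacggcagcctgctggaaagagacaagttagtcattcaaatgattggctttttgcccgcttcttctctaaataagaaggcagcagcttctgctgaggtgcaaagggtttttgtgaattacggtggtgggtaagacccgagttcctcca
Hes5 held 2 RBPJ matches, starting at bases 25 and 169 of its window, and Fabp7 held 1 at base 2. Of all 32851 promoters of the same length, 25.6% held this motif. N box matches were found in Vim at base 23 and in Fabp7 at base 115, and 42.5% of all promoters held 1 or more. The Vim window had a TATA box at base 219 (13.6% of all promoters) and the Nes window had GC boxes at bases 178 and 189 (35.7% of all promoters). These matches describe the letters of the windows and not bound sites. The Hes5 window was the richest in G and C of the 4, at 72.7%, and that of Fabp7 was the lowest, at 54.0%, against a median of 52.7% over all promoters.

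Sox1 could not be followed. Its count was 0 in all 65 replicates, although its row is present in the files, at chr8:12395518-12399555 (mm10, + strand). The whole of this span, 4038 bases, lies inside Gm5607 (chr8:12385770-12436732), a transcript on the same strand that GENCODE names Sox1ot, and the authors' counting dropped fragments that fell in 2 genes. Of the 388 genes in the files that lie wholly inside another gene on the same strand, 382 (98.5%) had no fragment in any library, against 2.68% of the other 22168 genes. The level of Gm5607 ran from 0.0863 to 8.39 RPM with a median of 0.711 RPM, and these values belong to the host transcript only. Sox2, a listed gene of the precursor network, had 0 fragments in the same setting, inside Sox2ot. The remaining 9 members had fragments, and Pax6 overlapped an antisense gene, Pax6os1, over 5.04% of its span, which the strand-specific counting keeps apart.

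The levels of the 9 counted genes differed widely. Per kilobase of counted span, the median level over the 65 replicates was 6.23 RPM for Nes, 4.17 RPM for Vim and 1.63 RPM for Notch1. Msi1 followed with 0.363 RPM per kilobase and Sox9 with 0.128 RPM per kilobase, while Fabp7 (0.0582), Pax6 (0.0366), Hes5 (0.0289) and Zic1 (0.0245) were lowest. Each pair of neighbours in this order overlapped in its range across libraries. Without the length correction, the lowest, median and highest levels were 6.29, 58.3 and 298 RPM for Nes and 38.6, 75.0 and 184 RPM for Notch1. Hes5 was the rarest member, with fragments in 42 of 65 replicates and a highest level of 2.72 RPM.

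Onset was taken as the first of day 3, day 5, day 7 and the late days (days 15 and on) at which a gene was higher than in an earlier reference stage, by edgeR's quasi-likelihood test at an adjusted p (Benjamini-Hochberg, all genes) below 0.05 and with a log2 fold change of at least 1. Days 3, 5 and 7 were each set against day 2, and the late days against day 7. At day 3 no member was called in any of the 4 cell sets compared, Dom WT, A3, Cast WT, and D5 and G6 together, where edgeR called 0%, 0%, 0.0056% and 0.319% of all genes. The members that passed an unadjusted p below 0.05 were 1, 1, 2 and 1, beside 1.67%, 2.58%, 3.77% and 9.89% of all genes. At day 5 Nes was higher in all 4 sets, and the members called were 1 of 9 in Dom WT (background 0.871% of all genes), 2 of 9 in A3 (6.18%), 2 of 8 in Cast WT (12.9%) and 2 of 8 in D5 and G6 (27.7%). At day 7 the members called were 2 of 9 in Dom WT (11% of all genes), 3 of 9 in A3 (15.5%), 4 of 8 in Cast WT (27.1%) and 5 of 8 in D5 and G6 (41%). In the late days they were 1 of 9 (3.12% of all genes), 2 of 9 (7.51%), 6 of 8 (18.4%) and 4 of 8 (43%) in the same order. The call at day 5 in Cast WT and in D5 and G6, and that at day 7, included Pax6, which was lower. The medians of the members' log2 fold changes at day 7 were 1.40, 1.88, 1.05 and 1.00, while those of all genes lay between −0.03 and 0.06. The first day to pass was therefore day 5 for Nes in all 4 sets, and day 7 for Vim, or day 5 in A3. Sox9 and Fabp7 passed at day 7 as well, the same day as Vim, in Cast WT and in D5 and G6. Zic1 passed in the late days of these sets. These days are threshold crossings, and the order between genes was not tested. Beyond that, Msi1 passed at day 7 in A3, Sox9 in the late days in A3 and Pax6 in the late days in Cast WT, and differences in onset between the lines were not tested.

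Nes (chr3:87971092-87980451, + strand) was higher at day 5 than at day 2 in all 4 cell sets. At day 2 its level was 16.02 and 11.1 RPM in Dom WT and 20.7 and 19.5 RPM in A3. At day 5 it was 140 and 90.2 RPM in Dom WT and 139 and 164 RPM in A3, so that the days did not overlap. The log2 fold change was 3.08 (SE 0.60, adjusted p = 0.0165, edgeR) in Dom WT and 2.97 (SE 0.60, adjusted p = 0.00773) in A3. Cast WT stood at 18.8 and 16.7 RPM at day 2 and at 89.2, 32.5 and 124 RPM at day 5, a log2 fold change of 2.34 (SE 0.74, adjusted p = 0.0378). For D5 and G6 together edgeR gave 1.80 (SE 0.54, adjusted p = 0.0144). At day 3 Nes stood at 60.8 and 64.2 RPM in A3 and at 45.1, 54.3 and 58.3 RPM in Cast WT, and these contrasts with day 2 did not pass the test (adjusted p = 1 in each). By day 7 the level was below that of day 5 in most clones, for example 101 and 62.5 RPM in Dom WT and 32.1, 25.02 and 94.4 RPM in Cast WT. Against day 2 it was called at day 7 in Dom WT (log2 fold change 2.66, adjusted p = 0.00867) and A3 (1.88, adjusted p = 0.034). Of the late days it was highest at day 21 in 4 of the 5 clones, with 298 RPM in Cast WT, 227 RPM in D5, 195 RPM in A3 and 192 RPM in Dom WT, and at day 15 in G6 with 89.0 RPM. The late days were above day 7 in Cast WT (log2 fold change 1.97, adjusted p = 0.0291) and in D5 and G6 (1.41, adjusted p = 0.0247). The day 5 call in Dom WT was lost when any of its 4 libraries was left out (adjusted p 0.0519 to 0.243), in A3 without either day 2 replicate (0.0829 to 0.0895), in Cast WT without any library but replicate 2 of day 5 (0.0699 to 0.237), and in D5 and G6 without replicate 1 of D5 at day 2 or replicate 2 of either clone at day 5 (0.0508 to 0.081). The day 7 call was lost in Dom WT without either day 2 replicate or replicate 1 of day 7 (0.0591 to 0.0944), and in A3 without any of its 4 libraries (0.0548 to 0.171). The late call was lost in Cast WT without day 21, day 35 or replicates 1 or 2 of day 7 (0.0558 to 0.27, with a log2 fold change of 1.19 without day 21), and in D5 and G6 without D5 at day 21 or replicate 1 of either clone at day 7 (0.0722 to 0.125). Scaling to library totals in place of TMM factors left adjusted p above 0.05 at day 5 in Cast WT (0.0538), at day 7 in A3 (0.0704) and in the late days of Cast WT (0.0555) and of D5 and G6 (0.065).

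Vim (chr2:13574310-13582826, + strand) was called from day 7 on, and in A3 from day 5. Its level lay between 11.5 and 26.3 RPM in the 21 libraries of days 2 and 3 and between 28.8 and 88.5 RPM in the 11 libraries of day 7, without overlap. The log2 fold change from day 2 to day 7 was 1.42 (SE 0.40, adjusted p = 0.0297) in Dom WT, 1.99 (SE 0.41, adjusted p = 0.00392) in A3, 1.82 (SE 0.63, adjusted p = 0.0321) in Cast WT and 1.81 (SE 0.47, adjusted p = 0.00311) in D5 and G6. From day 15 on it ran from 88.5 to 732 RPM, so that no late library lay below any library of day 7. The late days exceeded day 7 by log2 fold changes of 2.02 in Dom WT (adjusted p = 0.0117), 2.01 in A3 (0.00784), 3.26 in Cast WT (0.000265) and 2.60 in D5 and G6 (8.41e-05). In the ES libraries of the KO clones Vim stood at 14.5 to 30.7 RPM, and day 2 did not differ from ES by the test (log2 fold change −0.64, adjusted p = 0.33 in A3). At day 5 A3 gave a log2 fold change of 1.83 (SE 0.40, adjusted p = 0.0132), a call lost without either day 2 replicate or replicate 2 of day 5 (0.0662 to 0.147). The day 7 call was lost in Dom WT without replicate 1 or 2 of day 2 or replicate 1 of day 7 (adjusted p 0.12 to 0.515, with a log2 fold change of 0.53 without the last), in A3 without replicate 2 of day 2 (0.0621) and in Cast WT without replicate 1 or 2 of day 2 or replicate 3 of day 7 (0.112 to 0.169). The late call was lost in Dom WT without either day 7 replicate (0.0535 to 0.313, with 2.92 without replicate 1) and in A3 without replicate 1 of day 7 (0.0857). With library totals the day 7 call was lost in Dom WT (0.0522) and in Cast WT (0.0542). Genes of fibroblasts were higher over the same late days. The summed level of 8 fibroblast genes (Col1a1, Col1a2, Col3a1, Dcn, Lum, Postn, Thy1 and Twist2) ran from 6.75 to 33.7 RPM in ES, from 9.17 to 146 RPM at days 2 to 7 and from 266 to 16170 RPM from day 15 on. Of these genes 3, 5, 8 and 7 were higher late than at day 7 in Dom WT, A3, Cast WT, and D5 and G6, with median log2 fold changes of 5.50, 6.49, 4.96 and 5.78, where 3.12%, 7.51%, 18.4% and 43% of all genes were called. Their part in the late level of Vim was not tested.

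**Figure D1:**
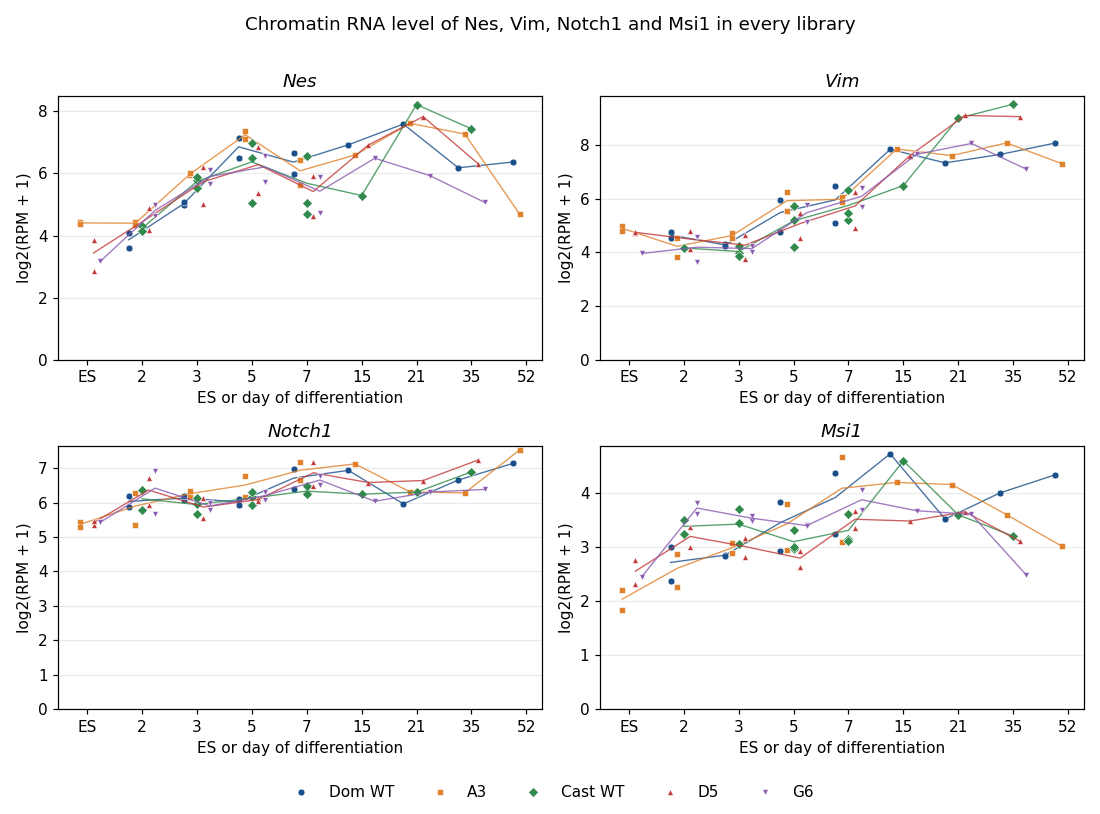
Levels of Nes, Vim, Notch1 and Msi1 on a log2(RPM + 1) scale in every library (points) by ES or day of differentiation, with lines through the mean of each clone. Nes is up by day 5, Vim is highest from day 15 on at 88.5 to 732 RPM, and Notch1 stays between 38.6 and 184 RPM throughout.

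Sox9 and Fabp7 were at or near the limit of counting early on. Sox9 (chr11:112782209-112787757, + strand) stood at 0.173 to 0.916 RPM at days 2 and 3, at 0.439 to 2.18 RPM at day 7 and at 1.78 to 14.7 RPM from day 15 on. At day 7 it was higher than at day 2 in Cast WT (log2 fold change 1.92, SE 0.64, adjusted p = 0.0262) and in D5 and G6 (2.63, SE 0.48, adjusted p = 0.000124). In the Dom line the same contrast gave 1.07 (adjusted p = 0.422) in WT and 2.11 (adjusted p = 0.104) in A3. The late days were above day 7 in A3 (2.70, adjusted p = 0.0382), Cast WT (2.35, 0.00198) and D5 and G6 (1.78, 0.000996). Dom WT, with 9.42, 2.83, 3.69 and 5.54 RPM at days 15, 21, 35 and 52, missed the threshold at 2.46 (adjusted p = 0.0704). The A3 call was lost without the day 15 library or without either day 7 replicate (adjusted p 0.0542 to 0.241), and the day 7 call in Cast WT without either day 2 replicate or replicate 3 of day 7 (0.106 to 0.183, with 1.20 without the last) or with library totals (0.0501). Across the 40 combinations of clone and day, Sox9 was the member whose profile was closest to that of Vim (Pearson r = 0.946, a description, since the combinations share clones and days). The fibroblast genes named above were higher over these late days too, and their part in the level of Sox9 was not tested.

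Fabp7 (chr10:57784922-57788450, + strand) had 0 to 4 fragments in each day 2 library. In Cast WT it had 0 fragments in both day 2 libraries and 9, 3 and 12 at day 7, that is 0.434, 0.113 and 0.386 RPM. With both day 2 libraries set to the floor of 3 fragments each, the day 7 mean was at least 2.59-fold higher, and the edgeR call had an adjusted p of 0.00393, or of 0.0605 without replicate 2 of day 2. D5 went from 0.127 and 0.0389 RPM at day 2 to 0.488 and 1.59 RPM at day 7, and G6 from 0.0440 and 0.0558 RPM to 0.822 and 1.57 RPM. Together D5 and G6 gave a log2 fold change of 4.15 (SE 0.68, adjusted p = 3.83e-05), which rests on 1 to 3 fragments per library at day 2. In the Dom line the day 7 replicates disagreed, with 53 and 2 fragments in WT and 19 and 102 in A3, and the contrast was not called. At day 15 Fabp7 reached 43.3 RPM in Dom WT and 17.1 RPM in A3, against 0.870 to 1.60 RPM at that day in the Cast line. It was back at 0.792 and 1.60 RPM at day 21 in Dom WT and A3, and stood at 6.49 and 6.70 RPM at day 52. In Cast WT it grew through the late days, 1.15, 3.53 and 7.14 RPM, and these were above day 7 by a log2 fold change of 3.82 (SE 0.65, adjusted p = 0.000233). The same contrast was not called in Dom WT (3.92, SE 1.75, adjusted p = 0.211), A3 (1.92, adjusted p = 0.422) or D5 and G6 (0.77, adjusted p = 0.187), and in D5 the late libraries, at 0.870 to 1.14 RPM, lay between its day 7 replicates.

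Pax6 (chr2:105668895-105697364, + strand) went the other way at first. In the KO clones it was highest in ES, at 10.2 and 6.68 RPM in A3, 4.74 and 4.62 RPM in D5 and 4.28 RPM in G6. From ES to day 2 it fell by 1.43 on the log2 scale in D5 and G6 (SE 0.37, adjusted p = 0.00739), while A3 gave −1.44 without passing (adjusted p = 0.432). From day 2 to day 5 it fell by 1.99 in Cast WT (SE 0.48, adjusted p = 0.00654) and by 1.32 in D5 and G6 (SE 0.36, adjusted p = 0.00702), and at day 7 it was still lower, at −1.64 (adjusted p = 0.0109) and −1.25 (adjusted p = 0.00668). In Cast WT the day 5 call was lost without replicate 1 of day 2 (log2 fold change −1.32, adjusted p = 0.17) and the day 7 call without replicate 1 of day 2 or replicate 2 of day 7 (0.25 and 0.0587, respectively, with −0.97 without the first), and in D5 and G6 both calls held without any 1 library. Dom WT stood at 8.28 and 4.74 RPM at day 2 and at 1.02 and 1.83 RPM at day 7, without overlap, and the log2 fold change of −2.13 did not pass the test (adjusted p = 0.229). The late levels of Pax6 were spread widely. It was at 9.39 RPM in Dom WT and 4.40 RPM in A3 at day 15 and at 0.868 and 0.250 RPM at day 21. Cast WT stood at 1.49, 0.706 and 2.20 RPM at days 15, 21 and 35 and was above its day 7 level (log2 fold change 1.84, adjusted p = 0.00415). D5 and G6, at 0.213 to 0.939 RPM, gave −0.34 against day 7 (adjusted p = 0.43). Over the 40 combinations of clone and day the profile of Pax6 correlated with the mean profile of the 9 members at r = 0.0577 and with that of Nes at r = −0.466.

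Zic1 and Hes5 stayed rare. Zic1 (chr9:91360344-91365799, − strand) was at 0 to 0.674 RPM at days 2 to 7 and at 0.0754 to 3.01 RPM from day 15 on. The late days were above day 7 in Cast WT (log2 fold change 2.64, SE 0.75, adjusted p = 0.0152) and in D5 and G6 (3.02, SE 0.57, adjusted p = 0.00017), where G6 was highest with 0.950, 1.79 and 1.12 RPM. The Cast WT call was lost without replicate 2 of day 7 (adjusted p = 0.0787). In the Dom line Zic1 was at 1.19 RPM in WT and 3.01 RPM in A3 at day 15 and at 0.0754 and 0.107 RPM at day 21. Hes5 (chr4:154960922-154962371, + strand) passed the filter on low counts in the Dom line only, and none of its contrasts over time was called. It had 85 fragments (2.72 RPM) in Dom WT and 41 fragments (1.36 RPM) in A3 at day 15, while no other library held more than 13. Zic1, Hes5, Fabp7 and Pax6 thus shared a maximum at day 15 among the late days of the Dom line, in both genotypes. The same held for Sox9 (9.42 RPM in Dom WT and 10.2 RPM in A3) and Msi1 (25.4 and 17.3 RPM).

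**Figure D2:**
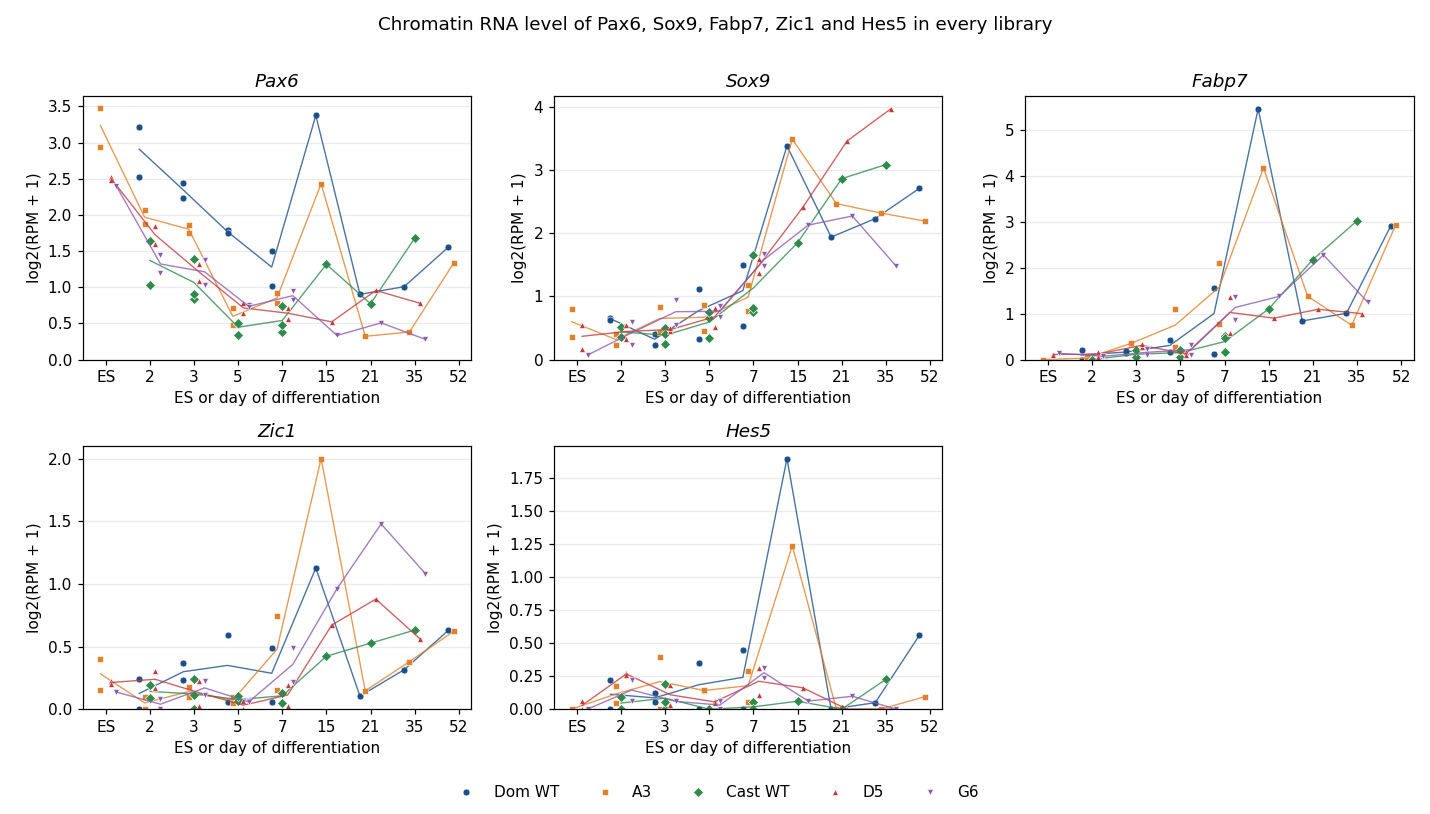
Levels of Pax6, Sox9, Fabp7, Zic1 and Hes5 on a log2(RPM + 1) scale in every library (points) by ES or day of differentiation, with lines through the mean of each clone. Pax6 starts high, and Sox9 is highest in the late days of every clone. The day 15 libraries of Dom WT and A3 stand above the other late libraries of their clones for Fabp7 (43.3 and 17.1 RPM), Pax6, Sox9, Zic1 and Hes5.

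Notch1 (chr2:26457901-26503822, − strand) was high throughout and was called in D5 and G6 only. It was at 38.6 to 43.2 RPM in the 5 ES libraries and at 40.1 to 120 RPM at days 2 and 3. From ES to day 2 it rose in D5 and G6 (log2 fold change 0.77, SE 0.25, adjusted p = 0.0251), where 2 of 8 members were higher and 1 lower against 22.7% of all genes called. In A3 none of 9 members was called between ES and day 2, while 7.88% of all genes were. None of these members passed an unadjusted p below 0.05 either, while 25.8% of all genes did. At day 7 D5 and G6 were higher than at day 2 by 0.58 (SE 0.22, adjusted p = 0.0329), a call lost without replicate 1 of either clone at day 2 or replicate 2 of either at day 7 (adjusted p 0.0865 to 0.193). The call against ES was lost without replicate 2 of D5 in ES or at day 2 or replicate 2 of G6 at day 2 (0.0636 to 0.191). With library totals the day 7 call of Notch1 was lost too, at 0.37 (adjusted p = 0.212). The other cell sets gave 0.76, 1.25 and 0.42 in Dom WT, A3 and Cast WT (adjusted p = 0.298, 0.073 and 0.284). Msi1 (chr5:115429684-115454202, + strand) was at 2.56 to 5.75 RPM in ES and rose by day 2 in D5 and G6 (log2 fold change 0.93, SE 0.30, adjusted p = 0.0275). From day 2 to day 7 it was higher in A3 (1.87, SE 0.58, adjusted p = 0.0357), from 6.35 and 3.82 RPM to 7.56 and 24.4 RPM. That call was lost without replicate 1 or 2 of day 2 or replicate 2 of day 7 (adjusted p 0.111 to 0.525), and without the last the log2 fold change was 0.70. The call against ES was lost without replicate 1 of D5 in ES, replicate 2 of D5 at day 2 or replicate 1 of G6 at day 2 (0.0726 to 0.0789). The first was also lost with library totals (0.071) and the second with separate runs (0.0504). From day 15 on Msi1 lay between 4.58 and 25.4 RPM, and none of its late contrasts was called.

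Targets of the Notch pathway were called beside it. Of the 8 listed, Hes1, a repressor of neuronal genes, was higher at day 7 than at day 2 in all 4 cell sets, with log2 fold changes of 2.28 (SE 0.72) in Dom WT, 3.22 (SE 0.74) in A3, 3.14 (SE 0.56) in Cast WT and 2.99 (SE 0.41) in D5 and G6. It was the only target called in Dom WT, where 8 were tested. Over all genes, 11%, 15.5%, 27.1% and 41% were called in this contrast in the 4 sets, in that order. In A3 4 of 8 targets were higher, with Nrarp, a feedback inhibitor of Notch, at 4.16, Hey2 at 2.81 and Hey1 at 2.42. In Cast WT 4 of 6 were higher, Hey1 at 2.64, Nrarp at 2.44 and Hey2 at 1.99 beside Hes1. In D5 and G6 5 of 6 were higher, Hey1 at 2.80, Nrarp at 2.32, Heyl at 2.00 and, outside the naming rule, Hey2 at 1.58, and Hes6, named after its value was seen, was lower at −0.94. The medians over the tested targets were 1.63, 2.88, 2.22 and 2.16. Hes5, the target among the members, was not called.

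Among the other receptors, Notch2 rose by day 7 in all 4 sets, by log2 fold changes of 1.50, 1.14, 1.17 and 1.30, and Notch3 in A3 by 1.15. No ligand was called at day 7, and at an unadjusted p below 0.05 the ligands were 1, 1, 0 and 0 of 5, beside 27.2%, 30.7%, 38.6% and 48.3% of all genes. Of 17 genes for processing and transcription, 6, 7, 7 and 9 were higher and 2, 1, 4 and 4 lower, beside 11%, 15.5%, 27.1% and 41% of all genes called. The co-activators Maml2 and Maml3 rose most, Maml2 by 3.33, 4.12, 3.55 and 3.51 and Maml3 by 3.83, 3.36, 3.26 and 3.23. The DNA-binding partner Rbpj was lower in all 4 sets, by log2 fold changes of −1.56, −1.49, −1.42 and −1.29. In the late days of D5 and G6, where 43% of all genes were called, the targets were lower than at day 7 in 3 of 6 cases. These were Nrarp at −2.32, Hes1 at −1.58 and Hey1 at −0.99. Over the same interval the ligand Jag1 was higher by 2.75 and the ligands Dll1, Dll3 and Jag2 were lower, at −2.75, −2.09 and −1.81. Jag1 was also higher late in Cast WT, by 2.93, together with the target Heyl at 2.66.

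A second fixed list held 27 further genes of the neural precursor network, mostly transcription factors and surface proteins of radial glia. At day 7 against day 2 it gave 2 higher of 25 tested in Dom WT (Nfia 1.93 and Gli3 1.09), 5 higher and 1 lower of 25 in A3, and 5 higher and 2 lower of 23 both in Cast WT and in D5 and G6, while 11%, 15.5%, 27.1% and 41% of all genes were called. Meis2 led in A3 and in D5 and G6, at 4.42 and 3.63, and Nfia in Cast WT, at 2.79. The lower genes, named in part after their values were seen, were Hopx, at −2.38 in A3, −1.66 in Cast WT and −2.46 in D5 and G6, and Zic5, at −1.69 in Cast WT and −1.92 in D5 and G6. In the late days the counts were 2 higher of 25 in Dom WT, 5 higher of 25 in A3, 9 higher and 3 lower of 23 in Cast WT and 14 higher and 6 lower of 23 in D5 and G6, beside 3.12%, 7.51%, 18.4% and 43% of all genes. Tnc, an extracellular matrix protein that fibroblasts also make, and the factor Nfix were the top 2 in each set, at 5.55 and 4.81 in Dom WT, 6.07 and 5.21 in A3, 5.85 and 4.56 in Cast WT and 6.46 and 5.75 in D5 and G6. The lower genes in Cast WT, again named after their values were seen, were Zic5 (−1.40), Zic2 (−0.93) and Slc1a3 (−0.85), and in D5 and G6 the largest decrease was that of Sox3, at −4.54. The summed level of the list ran from 1637 to 1786 RPM in ES, from 1728 to 5697 RPM at days 2 to 7 and from 4458 to 12705 RPM from day 15 on.

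Lists of markers of other states were measured in the same libraries. In Dom WT, A3, Cast WT, and D5 and G6, 11%, 15.5%, 27.1% and 41% of all genes were called in either direction at day 7 against day 2. Late against day 7 these shares were 3.12%, 7.51%, 18.4% and 43%, and the counts of called genes below stand beside them. The 10 naive pluripotency genes summed to 1292 to 1957 RPM in ES, to 95.7 to 872 RPM at days 2 to 7 and to 4.37 to 203 RPM from day 15 on. Late against day 7, 0, 0, 5 and 9 of these 10 were lower in Dom WT, A3, Cast WT, and D5 and G6. The 4 genes of primed pluripotency ran from 192 to 219 RPM in ES, from 98.6 to 1450 RPM at days 2 to 7 and from 6.80 to 252 RPM late, and 0, 1, 1 and 3 were lower at day 7 than at day 2. The 9 genes of mesoderm and endoderm ran from 12.7 to 28.5 RPM, from 9.23 to 293 RPM and from 19.1 to 222 RPM over the same periods, and 2, 1, 2 and 2 were higher at day 7. The 9 neuronal genes ran from 432 to 548 RPM in ES, from 164 to 445 RPM at days 2 to 7 and from 153 to 1165 RPM late. At day 7 the neuronal genes lower than at day 2 were 0, 0, 3 and 4, and late 0, 0, 3 and 3 were above day 7, with 1 lower in D5 and G6. The 10 genes of astrocytes and oligodendrocytes overlapped between the periods, at 33.8 to 53.3, 43.8 to 219 and 30.8 to 216 RPM, and were called late in D5 and G6 only, 2 higher and 2 lower of 9. The 6 neural crest genes, a lineage that also uses Sox9, ran from 4.98 to 16.2, from 2.50 to 118 and from 16.5 to 221 RPM, and 0, 0, 3 and 4 of 5, 5, 6 and 6 tested were higher late than at day 7, with 1 lower in Cast WT and in D5 and G6.

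**Figure D3:**
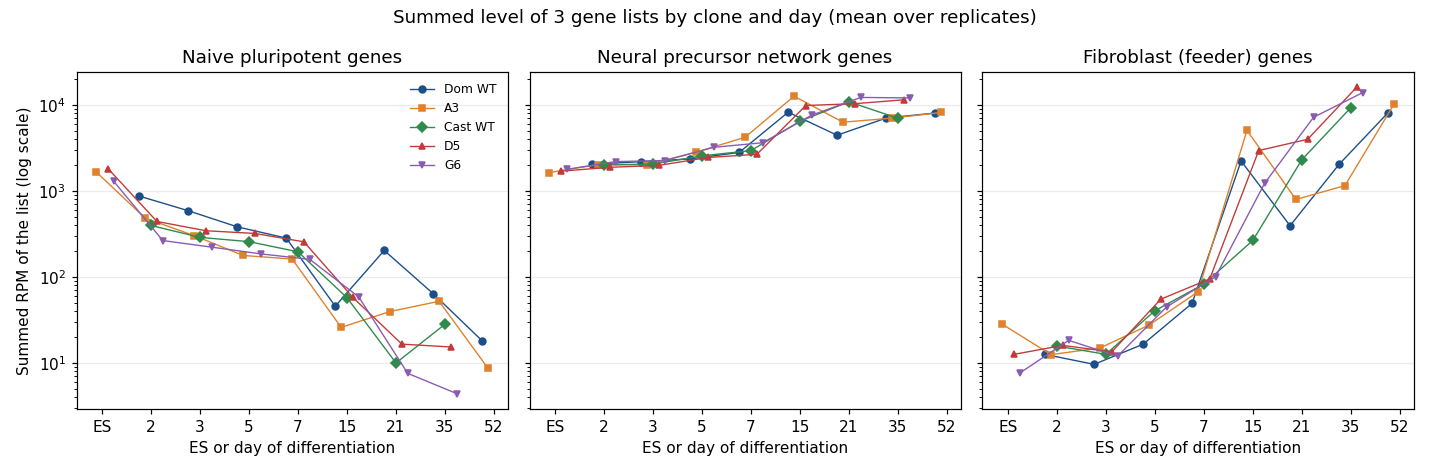
Summed level in RPM (log scale, mean over replicates) of the naive pluripotency, neural precursor network and fibroblast lists by ES or day of differentiation in the 5 clones. The naive genes decline from at least 1292 RPM in ES, the precursor network reaches 4458 to 12705 RPM from day 15 on, and the fibroblast genes climb from at most 146 RPM at days 2 to 7 to at least 266 RPM.

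The genotypes were compared at matched days, with day as a factor. Of the members tested, SmcHD1 KO differed from WT for Pax6 only, and only in the Dom line at days 2 to 7, where 1 of 7 members was called, against 0.803% of all genes. Pax6 stood at 8.28 and 4.74 RPM in WT and 3.17 and 2.65 RPM in A3 at day 2, and at 4.44 and 3.71 RPM against 2.63 and 2.35 RPM at day 3. At day 5 it was at 2.46 and 2.35 RPM against 0.638 and 0.387 RPM, and at day 7 at 1.02 and 1.83 RPM against 0.711 and 0.899 RPM. Both A3 libraries were thus below both WT libraries at each of these 4 days. The log2 fold change was −1.15 (SE 0.23, adjusted p = 0.0328, edgeR), and adjusted p ran from 0.000162 to 0.0414 over the other normalizations, filters and models. The test counts libraries of different days as independent, although they can come from the same time course. Adjusted p was above 0.05, at 0.0529 to 0.0817, in 11 of the 16 fits that left out 1 library, namely without replicate 1 of WT at days 2, 3 or 5, without replicate 2 of WT at days 5 or 7, and without either A3 replicate of days 2, 3 or 5. The naive pluripotency genes, which like Pax6 were highest in ES, were also lower in A3 over these days. Of 10 tested, 1 was called (0.803% of all genes) and 9 passed an unadjusted p of 0.05 (13.8% of all genes). The median log2 fold change was −0.92, against 0.01 over all genes, and summed levels were 152 to 872 RPM in WT and 95.7 to 612 RPM in A3. Their part in the Pax6 difference was not tested.

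In the Cast line Pax6 did not follow. At day 2 it was at 2.12 and 1.05 RPM in WT, 2.59 and 2.02 RPM in D5 and 1.71 and 1.28 RPM in G6, and over days 2 to 7 D5 and G6 gave a log2 fold change of 0.49 against WT (SE 0.18, adjusted p = 0.276). The difference of KO from WT was itself compared between the Dom and the Cast line. Pax6 was the only 1 of 8 members called, against 0.288% of all genes, with a log2 difference of −1.64 (SE 0.29, adjusted p = 0.00465, edgeR). Genotype cannot be told apart from clone in the Dom line, and fits leaving out libraries were not run for this test. None of 7 members was called for D5 and G6 together at days 2 to 7 (0.381% of all genes), with 0 by DESeq2. At an unadjusted p below 0.05 there were 3, beside 9.86% of all genes. None was called for D5 alone (11% of all genes) or G6 alone (2.25% of all genes), with 0 and 1 by DESeq2. Unadjusted there were 3 and 4, beside 25.6% and 15.4% of all genes. Scaling to library totals called 1 member in D5, Fabp7, at 1.33 (adjusted p = 0.0424). The largest of these values was that of Fabp7, at 1.30 (SE 0.36, adjusted p = 0.106) for both clones, 1.26 (adjusted p = 0.0508) for D5 and 1.36 (adjusted p = 0.08) for G6. Msi1 in G6 gave 0.40 (SE 0.11, adjusted p = 0.0583).

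The other members differed by less than the test could call at days 2 to 7. In A3, Nes gave 0.45 (SE 0.17, adjusted p = 0.253), Fabp7 1.03 (SE 0.65), Notch1 0.22 (SE 0.14), Vim 0.14 (SE 0.22), Msi1 0.10 (SE 0.26) and Sox9 −0.07 (SE 0.41). In D5 and G6, Sox9 gave 0.46 (SE 0.22, adjusted p = 0.483), Vim 0.15 (SE 0.18), Notch1 0.15 (SE 0.10), Msi1 0.11 (SE 0.14) and Nes −0.01 (SE 0.23). In the late days none of 9 members was called in A3 and none of 8 in D5 and G6, as for all genes (0% in each), with 1 and 2 members at an unadjusted p below 0.05. Over all genes, 1622 (10.7%) and 1898 genes (12.7%) passed the unadjusted p there and DESeq2 called 186 and 444. The largest late values were those of Pax6, −1.03 (SE 0.36, adjusted p = 0.462) in A3 and −1.53 (SE 0.52, adjusted p = 0.342) in D5 and G6. Hes5 gave −1.49 (SE 0.59, adjusted p = 0.462) in A3 and Zic1 gave 1.20 (SE 0.49, adjusted p = 0.379) in D5 and G6. The rise from day 2 to day 7 was compared between genotypes as a difference of differences, and no member was called in the Dom line (9 tested) or the Cast line (8 tested), also without adjustment, as for all genes (0% in each line, with 219 and 77 genes unadjusted and 2 and 0 by DESeq2). Of the listed Notch genes, Maml3 was higher in A3 than in WT at days 2 to 7, by 0.56, and no gene of the precursor network was called there.

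**Figure D4:**
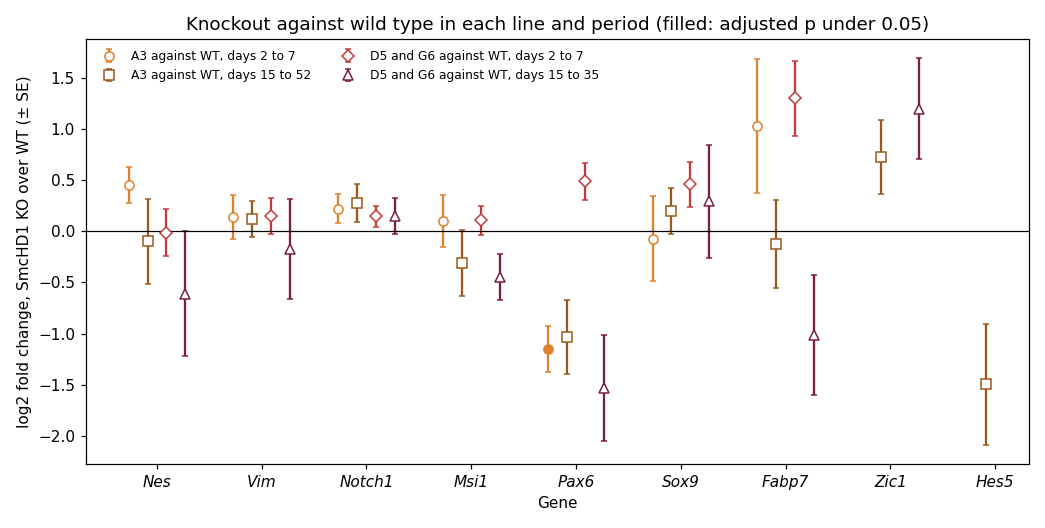
Log2 fold change of SmcHD1 KO over WT (points, bars ± SE) for each member in each line at days 2 to 7 and in the late days, filled where the adjusted p is under 0.05. Pax6 in A3 at days 2 to 7, at −1.15, is the only filled point, and members that did not pass the filter on low counts have no point.

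Because the cells are hybrids, fragments over strain variants were assigned to alleles, and the share from the Cast allele was taken for members with at least 20 allelic fragments in every library used. Of 18 comparisons of KO with WT over these shares, none was called after adjustment (two-sided permutation of genotype within day, lowest adjusted p = 0.289), and 3 had an unadjusted p below 0.05. The tests were exact except for the 4 genes of the Cast line at days 2 to 7, for which 100000 arrangements were drawn. The 10 late comparisons could not have been called, since the smallest p their designs allow is 0.125 in the Dom line and 0.037 in the Cast line. The autosomal genes as a whole had medians of 48.8 to 49.0% Cast per clone. The share of Vim changed with time in all 5 clones, which was noticed in the values and then tested. It was 24.9 to 31.7% in the 5 ES libraries and 12.4 to 34.3% in the 10 libraries of day 2, with a median of 24.5%. It was 26.1 to 36.1% at day 3, 35.7 to 49.2% at day 5, 41.9 to 52.3% at day 7 and 48.0 to 54.7% from day 15 on. Day 7 was above day 2 without overlap in each of the 5 clones, with means of 49.1% ± 2.86 (SD, n = 11) and 24.0% ± 5.74 (SD, n = 10), a difference of 25.03 points. The exact permutation test of day within clone gave p = 7.72e-05, the smallest that its 12960 arrangements allow, and 0.000309 adjusted over the 4 genes tested. The shares of neighbouring genes did not move in this way, with medians of 44.0 to 48.6% within 10 Mb at every clone and day.

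In RPM, a level relative to the library total, both alleles of Vim gained, the Cast allele more. In Dom WT the Cast fragments of Vim went from 3.23 RPM at day 2 to 16.8 RPM at day 7 and the Dom fragments from 11.03 to 18.4 RPM. In Cast WT they went from 1.86 to 14.9 RPM and from 8.27 to 15.9 RPM. The fibroblast genes, which were made from both alleles as well, had Cast shares of 47.0 to 54.5% at days 2 to 7 and 49.8 to 54.3% in the late days. These shares pool the days of each period, so days 2 and 3 are not shown apart. In ES of the KO clones they were 45.4 to 50.0%, from 74 to 259 allelic fragments. Among the other genes tested, the Cast share of Notch1 was 47.1% ± 2.77 (SD, n = 10) at day 2 and 50.3% ± 1.51 (SD, n = 11) at day 7 (exact permutation p = 0.0027, adjusted 0.0054), without overlap in 3 of 5 clones. Nes (44.3 and 43.3%, exact permutation p = 0.495) and Msi1 (63.4 and 65.2%, p = 0.458) gave no call. Msi1 was weighted to the Cast allele in the Cast line, with 66.9 to 75.0% by clone and stage, where neighbouring genes had medians of 64.6 to 68.9%, and stood at 50.5 to 54.6% in the Dom line. Sox9 was counted from both alleles in the late days, at 46.9 to 53.2% by clone. In Dom WT and A3 it stood at 51.9 and 52.5%, where neighbouring genes had medians of 59.1 and 62.7%. In the clones of the Cast line the neighbours had medians of 46.4 to 48.5%.

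**Figure D5:**
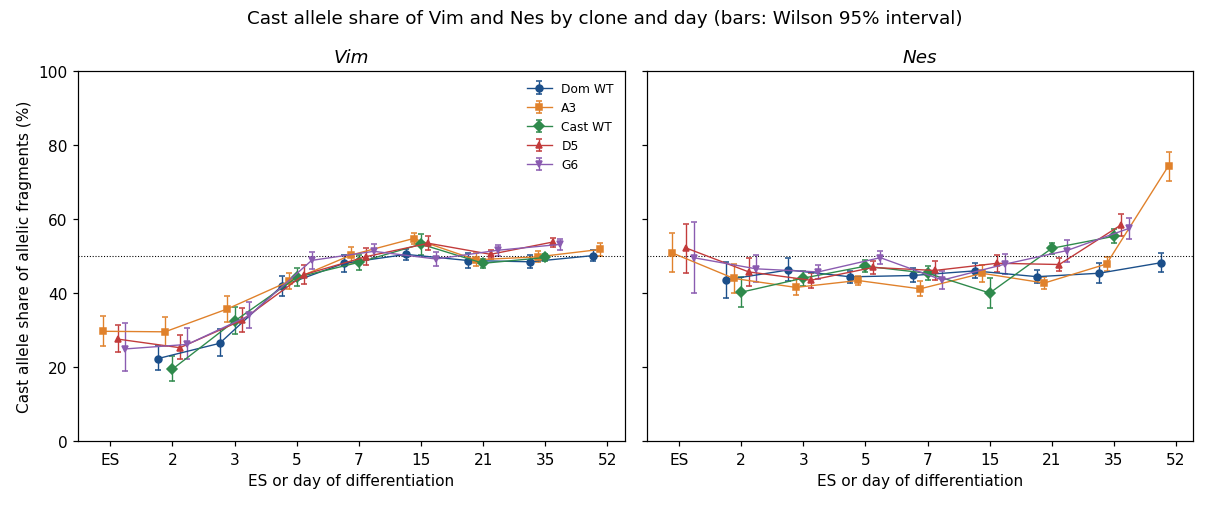
Share of allelic fragments from the Cast allele for Vim and Nes by ES or day of differentiation, in percent, pooled over replicates in each clone with Wilson 95% intervals that cover counting error only. Vim goes from 19.4 to 29.5% at day 2 to 48.0 to 51.2% at day 7 across the 5 clones, while Nes lies at or below 58.4% except at day 52 in A3, at 74.4%.

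Among 12879 genes outside the members, the profiles most like the mean profile of the 9 counted members over the 40 combinations of clone and day were those of BC005764 (Pearson r = 0.891), Arhgap33 (0.885), Mex3b (0.884), Dcc (0.884) and Irx5 (0.884). These correlations are descriptions over combinations that share clones and days. Each of the 5 was highest at day 15 of the Dom line, and Dcc, a netrin receptor, ran from 2.79 to 2120 RPM. Among the members, Fabp7 was closest to the mean profile (r = 0.935) and Pax6 farthest from it.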

How the data were processed

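ChrRNA-seq was made with the Illumina TruSeq stranded total RNA kit. The deposited values are counts per gene and library, which the authors made by removing ribosomal reads with Bowtie2 (2.3.2), mapping with STAR (2.4.2a) to an N-masked mm10 genome, splitting alleles with SNPsplit and counting with featureCounts, strand-specifically, over whole transcripts with introns. Fragments in overlapping genes of a strand were not counted, so most genes nested in another have no counts. Deposited tables of allelic ratios were not used. Repeat runs of a replicate were summed, which left 65 replicates of 72 libraries, and totals of 9344054 to 56290046 set the precision.

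Groups followed the labels. Tests were run in R 4.3.3 with edgeR 4.0.16 (TMM, filterByExpr, quasi-likelihood test, two-sided, Benjamini-Hochberg over all genes tested, adjusted p below 0.05) for genotype with day as a factor and for days within clones, with late days pooled, so that their spread includes days. RPM were computed from these counts. DESeq2 1.42.0, RLE factors, library totals, no filter, separate runs, the replicate number as a block and leaving out libraries were alternatives. Allele shares were compared by permutation, exact except in the Cast line at days 2 to 7 (100000 resamples). Genes were named as the 10 members, at most 4 called genes per list by fold, and the 5 most similar profiles. The members and lists were chosen with earlier results of these data known. The scripts were tested on simulated data.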

Additional observations from a re-analysis of the deposited data

Results flagged for a closer look

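The difference of KO from WT in Pax6 at days 2 to 7 was compared between the lines, and the lines differed by this test. Genotype cannot be told apart from clone in the Dom line, and the spread between WT clones was not measured. KO against WT gave −1.15 (SE 0.23) in the Dom line and 0.49 (SE 0.18) in the Cast line on the log2 scale. The difference of −1.64 (SE 0.29) had an adjusted p of 0.00465 by edgeR, with 7.49e-05 to 0.0098 over 5 alternatives that kept all libraries. Fits leaving out libraries in turn were not run for this test. The A3 contrast itself lost its call in 11 of 16 such fits. In the Dom line both A3 replicates were below both WT replicates at each of the 4 days.

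Within the late libraries, 42 groups of 4 or 6 values (levels and Cast shares) were searched for a library far from the rest, measured as its gap to the nearest other library over the whole range. The cut-off marks about 1 in 20 groups of independent, normally distributed values. The groups here share libraries and mix days, so that rate does not apply to them. The late groups of the Dom line hold 1 library of each day. Of the 7 values marked, 5 were the day 15 library of the Dom line. They were the Pax6 level in Dom WT (9.39 RPM, gap 0.875 of the range), the Fabp7 level in Dom WT (43.3 RPM, 0.866), the Hes5 level in A3 (1.36 RPM, 0.950), the Zic1 level in A3 (3.01 RPM, 0.851) and the Sox9 level in A3 (10.2 RPM, 0.855). The Fabp7 level of G6 at day 21, 3.86 RPM, stood apart among the 6 late libraries of D5 and G6 (0.757).

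The Cast share of Nes in A3 at day 52 was 74.4% (Wilson 95% interval 70.2 to 78.2%, 461 allelic fragments), against 42.7 to 47.8% in the other late A3 libraries, a gap of 0.838 of the range. The Cast fragments of Nes were at 11.5 RPM and the Dom fragments at 3.97 RPM there, while neighbouring genes had a median Cast share of 49.0%.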

How the results depend on the processing

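Of 473 fold changes of members under other settings, 445 kept their direction and side of the threshold, 10 fell below it, 6 passed it and 12 reversed, and of 135 counts of called members 11 moved by over 1.5 times. Of 1051 fold changes with 1 library left out, 935 held, 75 fell below the threshold, 12 passed it and 29 reversed. The cause was not tested where none is named. With library totals 1 member (Fabp7) was called in D5 against WT, 1 each at day 7 in Dom WT and in A3, 1 at day 5 and 2 at day 7 in Cast WT. DESeq2 called 1 in G6 (Msi1). With separate runs, and without day 15 (added after the values were seen), 4 were called at day 5 in D5 and G6. The reversed values were 0.34 for Fabp7 in A3 late without day 15, −0.0095 for Vim in A3 late and 0.0056 for Nes in D5 and G6 with library totals, −0.11 for Vim in D5 and −0.038 for Nes in G6 with separate runs, and, for the difference between lines, 0.0029, 0.00028 and 0.087 for Vim with RLE, DESeq2 and separate runs and 0.0042 and 0.0025 for Msi1 with RLE and DESeq2.

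With the replicate number as a block, Pax6 in A3 gave −1.15 (adjusted p = 0.0414) and 1 member was called in D5 and G6 together (Fabp7), 1 in D5 (Fabp7) and 2 in G6 (Fabp7 and Sox9), and Nes turned to 0.26 in D5 and G6 and 0.13 in D5. Whether the numbers pair the samples is not given by the labels. Deviations of equal numbers correlated at −0.727 to −0.446 in the Dom line and at −0.293 to 0.794 in the Cast line, where 4 of 8 pairs were over 0.1 and 4 under −0.1, so the fits without the block were kept as the main ones. The crossed pairing of the Dom line, added after the values were seen, called 540 genes.

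Leaving out 1 library gave 0 to 1 called members for A3, D5 and G6 each against WT at days 2 to 7, 0 at day 5, 0 to 2 at day 7 and 0 to 2 late in Dom WT, 0 to 2 at each of day 5, day 7 and late in A3, 0 to 2 at day 5 and 1 to 4 at day 7 in Cast WT, and 1 to 2 at day 5 and 1 to 3 against ES in D5 and G6. Values that crossed 0 ran, at days 2 to 7, from −0.28 to 0.20 (Sox9) and −0.13 to 0.22 (Msi1) in A3, from −0.089 to 0.20 (Nes) in D5 and G6, and from −0.062 to 0.16 (Vim) and −0.26 to 0.086 (Nes) in D5. Late, they ran from −0.48 to 0.34 (Fabp7) and −0.51 to 0.33 (Nes) in A3 and from −0.24 to 0.53 (Sox9) and −0.71 to 0.33 (Vim) in D5 and G6.

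Counts over all genes moved by over 1.5 times for A3 at days 2 to 7 (124, with DESeq2 558), D5 and G6 (59, with totals 114, no filter 37, DESeq2 238, block 249), D5 (1712, block 2755), G6 (349, DESeq2 636, block 1267) and the difference between lines (46, totals 30, separate runs 30, DESeq2 105). Over time they moved at day 3 in D5 and G6 (57, RLE 14, totals 34, separate runs 122, without day 15 244) and in Cast WT (1, totals 2, without day 15 15), and without day 15 at day 5 in Dom WT (149 to 235) and Cast WT (2313 to 3576) and late in Cast WT (3290 to 6135). Fabp7, Zic1 and Hes5 rest on few fragments before day 7, and 1 late library per day limits the late comparisons.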
